A study of Mus musculus with 6 samples.

Results

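The genes described here encode mitochondrial ribosomal proteins, and they were taken by name as every gene whose symbol is Mrpl or Mrps followed by a number and at most 1 further letter. The rule found 77 of 24391 annotated mouse genes, 48 named Mrpl and 29 named Mrps. Messenger RNA was measured by RNA sequencing in 6 libraries, 3 with MAX restored and 3 control. All came from mRPMaxKO, a mouse cell line grown from a lung tumour labelled RPMax-/-, in which Max is deleted beside Rb1 and p53, the losses used to model small cell lung cancer. The strains named are 129/SvJ and C57BL/6. Cells of both groups belonged to a polyclonal, puromycin-selected population with a doxycycline-inducible lentiviral vector, below passage 20. The labels give 4 days of doxycycline in the same words for both groups. They leave out whether the control arm had an empty vector or went without doxycycline, so effects of either cannot be told apart from that of MAX. The design asks how restoring MAX, with which MYC proteins pair on DNA, alters the transcripts of these cells. Nothing in the labels ties the 3 libraries of a group to separate cultures. The p-values therefore cover only the spread among libraries, which may be technical.

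Mitochondria carry their own ribosome. It translates the few proteins that the mitochondrial genome encodes, all of them subunits of the oxidative phosphorylation complexes. Its ribosomal RNAs are made inside the organelle, but all of its proteins are encoded in the nucleus, made in the cytosol and imported. In the files they appear as genes of the large subunit, which forms peptide bonds, and of the small subunit, which holds and reads the messenger RNA. Many have a counterpart in the bacterial ribosome, while others are found only in mitochondria. A few symbols mislead: Mrps18a and Mrps30 are built into the large subunit, and Mrps36 belongs to the oxoglutarate dehydrogenase complex and is absent from mitoribosome structures.

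The libraries held between 10253303 and 11925909 counts with MAX restored and between 10046899 and 10425210 in the controls. Max itself averaged 1327 ± 18.7 CPM (counts per 1000000 library counts, with library sizes scaled by TMM) with MAX restored and 63.5 ± 2.47 CPM in the controls (SD, n = 3 each). The 7 neuroendocrine markers summed to between 8539 and 8840 CPM with MAX restored and between 8443 and 8693 CPM in the controls, and each could be tested. The 4 fibroblast markers summed to between 0.489 and 0.803 CPM with MAX restored and between 0.792 and 1.246 CPM in the controls, and none could be tested. The 3 immune markers summed to between 2.41 and 3.22 CPM with MAX restored and between 1.49 and 2.76 CPM in the controls, with none called. The 2 endothelial markers reached 1.34 CPM with MAX restored and 0.479 CPM in the controls. Of these, Cdh5 had no count in any library. Control 1 stood apart from the other controls, since a chi-square of its counts, divided by the degrees of freedom, came to 8.91 with control 2 and 10.2 with control 3. Pairs of MAX restored libraries gave 1.24 to 1.46. The share of reads on Rn45s, from which cytosolic ribosomal RNAs are cut, was 0.996% in control 1, against 0.109% to 0.187% in the other libraries. Rn45s was among the genes in the chi-square, which was not computed without it. Without control 1, 55 Mrp genes were lower and the family's median was -0.31, against 56 and -0.34 with it. Of all tested genes 32.9% were lower without control 1, against 32.3% with it.

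As a family, the mitochondrial ribosomal protein genes were lower with MAX restored. Of the 76 with enough counts to be tested, 56 were lower and 2 higher (edgeR's quasi-likelihood test, adjusted p under 0.05 over all 12664 genes tested), and 18 did not pass. Over all tested genes 32.3% were lower and 31.2% higher by that rule, against 73.7% and 2.63% of the family. The median log2 fold change of the 76 was -0.34, with quartiles of -0.45 and -0.15, where the median of all tested genes was 0.00. A fall of log2 0.32 or more was called for 40 members (18.6% of all tested genes) and a rise of that size for 1, Mrpl20 (20.3%). The falls were thus frequent but mostly small, and only Mrpl38 fell by more than log2 1. In 56 of the 76 genes all 3 MAX restored libraries lay below all 3 controls (33.8% of all tested genes), and in 2 all 3 lay above (33.2%).

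The summed level of the 77 genes showed the same shift in every library. It was 2548, 2543 and 2514 CPM in MAX restored libraries 1, 2 and 3, and 3265, 3196 and 3155 CPM in controls 1, 2 and 3. The lowest control thus lay above the highest MAX restored library. The mean with MAX restored was 79.1% of the control mean. Mrpl genes summed to 1725 ± 20.4 CPM with MAX restored and 2173 ± 32.4 CPM in the controls, and Mrps genes to 811 ± 4.68 and 1032 ± 24.2 CPM (SD, n = 3 each). The ratio of the Mrpl to the Mrps sum was 2.13 ± 0.0335 with MAX restored and 2.11 ± 0.0240 in the controls, a difference smaller than the spread. Since libraries are scaled to a common total, these are shares of the messenger RNA pool. In RNA from whole cultures, fewer cells expressing a gene and less of its RNA per cell cannot be told apart.

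**Figure D1:**
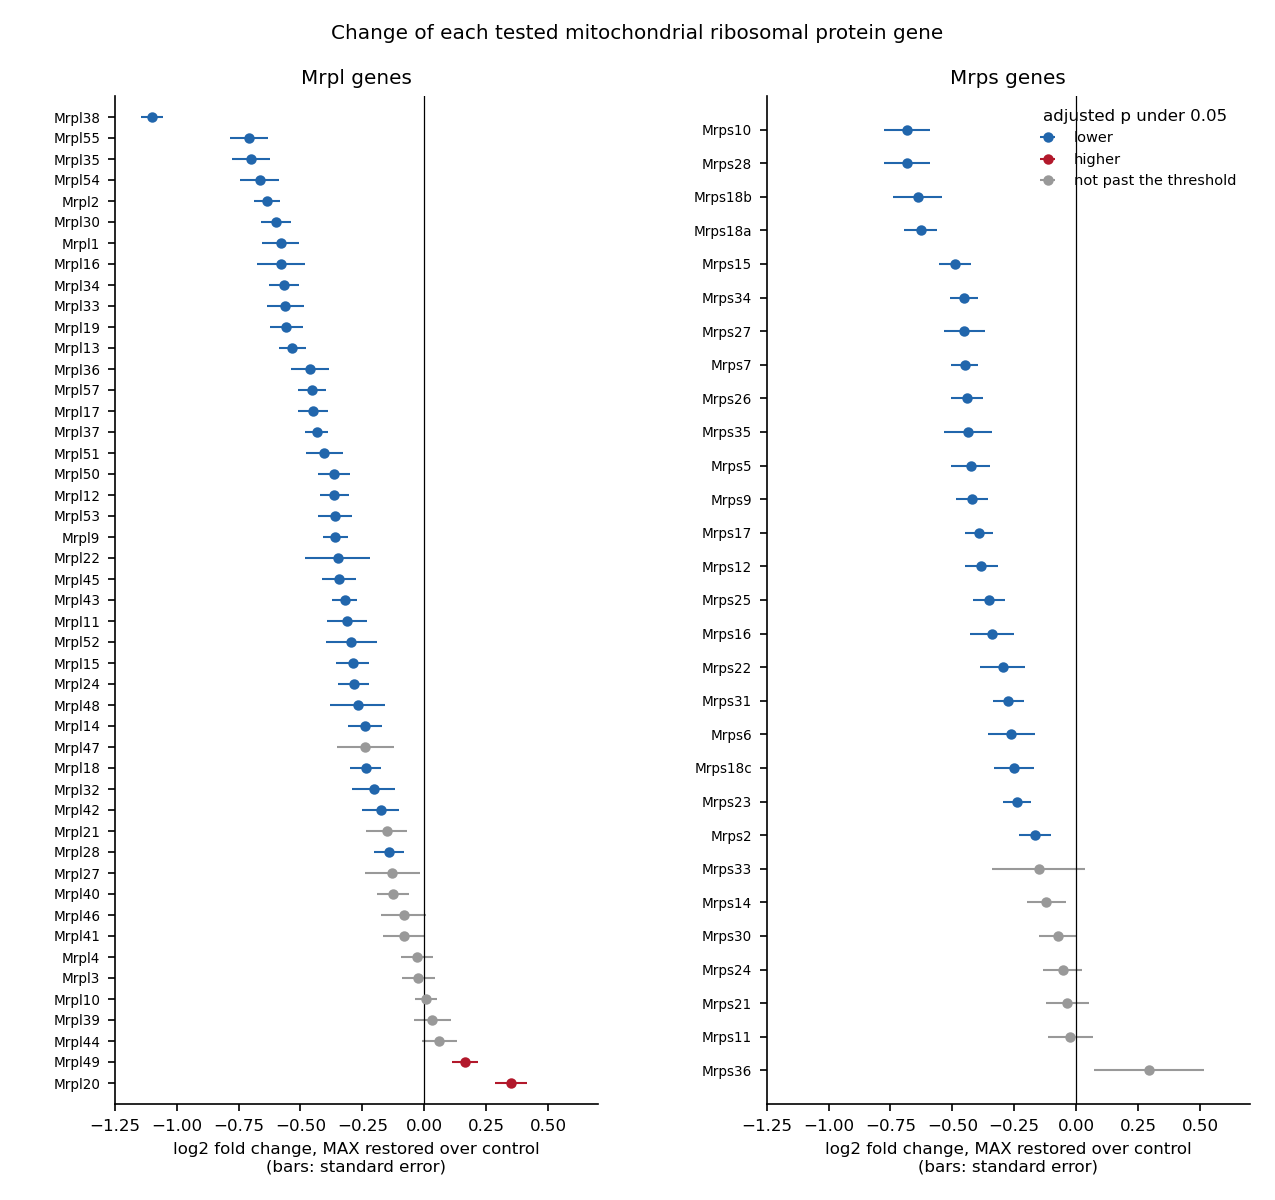
Log2 fold change, MAX restored over control, of each tested Mrpl gene (left, 47 genes) and Mrps gene (right, 29 genes), with standard errors and ordered by size. Blue points are lower and red points higher at an adjusted p under 0.05, and grey points did not pass. Most points of both panels lie left of 0, with Mrpl38 farthest and Mrpl20 and Mrpl49 the only red points.

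Short genes tended to be lower in these libraries, and most of the family is short. The median exon length was 1054 bases over tested members and 2970 bases over all tested genes. Among genes under 1500 bases, 40 of 53 members (75.5%) and 41.4% of the 1992 other tested genes were lower, with medians of -0.35 and -0.13. Among genes of 1500 bases or more, 16 of 23 members (69.6%) and 30.3% of the 10596 others were lower, with medians of -0.31 and 0.03. When the trend with length was taken out of each library, the family's median became -0.19, with 41 members lower and 3 higher. Mrps21, at 407 bases among the shortest members, became the additional gene to rise, at log2 0.22 (adjusted p = 0.0228 in that fit). The lower share over all genes in that fit was 30.7%, and all 41 were among the 56. How much of the family's change belongs to length was not tested further.

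**Figure D2:**
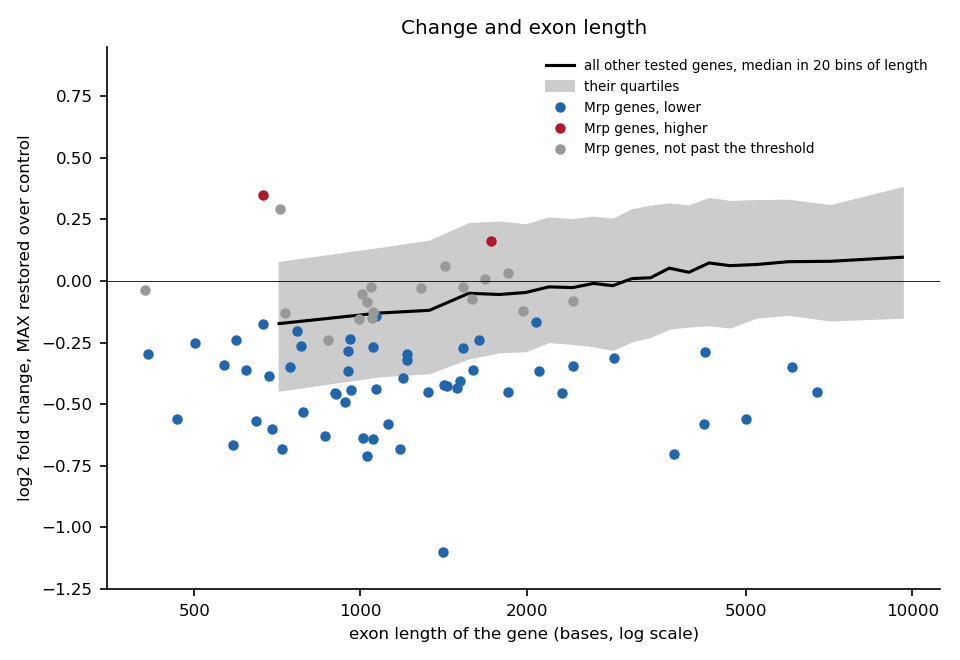
Log2 fold change, MAX restored over control, against exon length in bases (log axis), for the tested mitochondrial ribosomal protein genes (points, coloured by call) and for the other tested genes (line, median in 20 bins of length; band, quartiles). The line runs from -0.17 at the shortest genes to 0.10 at the longest, and most members lie below it.

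Promoter sequences were at hand for 68 of the 77 members, from RefSeq on GRCm38.p6, each running from 250 bases before the gene's start to 50 after it. The letters CACGTG, the E-box that MYC-MAX dimers are known to bind, stood in 5 of them (7.35%). They stood in 8.09% of the 27025 genes whose windows were searched and in 11.9% of the 9671 of these that were tested here. The 5 are shown because this is the site of the protein that was put back, and they hold members of both directions. Each stretch reads from 5′ to 3′ on the gene's strand and ends at or before the start, with the E-box in capitals. The stretches are chr17:46646050-46646135 (plus strand), chr13:73330926-73331008 (plus), chr4:107066983-107067068 (minus), chr5:100798556-100798641 (plus) and chr4:155802805-155802877 (plus), in the order printed.
Mrpl2: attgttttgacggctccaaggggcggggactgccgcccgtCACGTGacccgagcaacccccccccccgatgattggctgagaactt
Mrpl36: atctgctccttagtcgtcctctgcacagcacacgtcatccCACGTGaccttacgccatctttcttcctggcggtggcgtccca
Mrpl37: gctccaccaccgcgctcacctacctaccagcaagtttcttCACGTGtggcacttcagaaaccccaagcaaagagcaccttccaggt
Mrps18c: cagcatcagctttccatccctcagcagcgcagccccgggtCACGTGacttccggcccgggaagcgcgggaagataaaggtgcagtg
Mrpl20: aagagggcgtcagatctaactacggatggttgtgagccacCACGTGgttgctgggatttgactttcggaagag
The E-box began 131 bases before the nearest annotated start of Mrpl2, 43 before that of Mrpl36, 162 before Mrpl37, 163 before Mrps18c and 33 before Mrpl20. Of these 5 genes Mrpl2 (log2 -0.64), Mrpl36 (-0.46), Mrpl37 (-0.44) and Mrps18c (-0.25) were lower and Mrpl20 (0.35) was higher. Members with these letters were thus found among both the lower and the higher genes, though Mrpl20 was the only one higher. It lies in a stretch of chromosome 4 where 147 of 192 other tested genes were higher.

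Letters found in sites of other factors known to act on nuclear genes for mitochondria were searched on both strands of the same windows. The 68 members had 74 windows, and a match in any window of a gene counted for that gene. CCGGAAG, as in sites of ETS factors such as GABP, stood in 25 of the 68 members (36.8%), against 20.0% of tested genes and 9.93% of all genes. It occurred in 20 of the 48 members called lower and 5 of the other 20. AAGATGG, as in sites of YY1, stood in 13 members (19.1%), against 8.38% of tested genes and 7.28% of all. GCATGCG, as in sites of NRF1, stood in 8 (11.8%), against 7.49% of tested genes and 4.01% of all. AAGATGG occurred in 10 of the 48 members called lower and 3 of the other 20, and GCATGCG in 6 and 2. The median log2 fold change was -0.34 in members with CCGGAAG and -0.28 in members without it. For AAGATGG the medians were -0.38 and -0.30, for GCATGCG -0.35 and -0.30, and for CACGTG -0.44 and -0.30. Differences between members with and without such letters were not tested. Mrpl34 and Mrps18a are printed because they carry CCGGAAG and are among the falls with the smallest p. They lie at chr8:71464849-71464925 and chr17:46110938-46111003, both on the plus strand, with CCGGAAG in capitals and beginning 37 and 26 bases before the start.
Mrpl34: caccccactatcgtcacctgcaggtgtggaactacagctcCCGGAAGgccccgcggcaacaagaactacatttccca
Mrps18a: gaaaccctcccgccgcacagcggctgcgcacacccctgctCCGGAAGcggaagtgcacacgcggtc

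Among the large subunit proteins with a bacterial counterpart, 22 of 29 tested genes were lower (75.9%, against 32.3% of all tested genes). Their median was -0.35, and 1 was higher (3.45%, against 31.2%). After the length trend was removed 16 were lower, where 30.7% of all tested genes were. Mrpl2, which sits beside the centre where peptide bonds form, had 471, 449 and 412 counts in MAX restored libraries 1, 2 and 3, against 622, 653 and 629 in controls 1, 2 and 3. It averaged 39.96 ± 0.349 CPM with MAX restored and 62.1 ± 0.706 CPM in the controls (SD, n = 3 each), with the groups far apart, and its log2 fold change was -0.64 (SE 0.05, edgeR adjusted p = 3.19e-09). Mrpl13 had 801, 746 and 604 counts with MAX restored and 988, 934 and 937 in the controls. Its means were 64.3 ± 4.58 and 93.2 ± 3.90 CPM, and it fell 1.45-fold. Mrpl30 had 440, 384 and 335 counts with MAX restored and 528, 545 and 540 in the controls, a fall of 1.51-fold. In Mrpl13 and Mrpl30 MAX restored library 3 was the lowest, and no library of either group crossed into the other. Mrpl35 fell 1.63-fold, with 244, 229 and 206 counts with MAX restored against 339, 323 and 353 in the controls. Mrpl3 (log2 -0.02, SE 0.07) and Mrpl4 (-0.03, SE 0.06), proteins of the core, overlapped between the groups and did not pass, and Mrpl3 was 0.04 without control 1.

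Mrpl20, a core protein known from bacteria as an early binder in large subunit assembly, was the member that rose most. Its counts were 761, 671 and 563 with MAX restored, against 440, 520 and 477 in the controls. That was 59.6 ± 4.47 CPM with MAX restored and 46.8 ± 3.28 CPM in the controls (SD, n = 3 each), a log2 fold change of 0.35 (SE 0.06, edgeR adjusted p = 9.56e-05). The groups did not overlap, and MAX restored library 3 came closest to the controls. The gene lies near the end of chromosome 4, from 155177727 to 155182938 in mm9 on the plus strand, in a stretch where 147 of 192 other tested genes were higher and their median was 0.44. Mrpl34 lies in a stretch of chromosome 8, from 73988825 to 73989652 in mm9, where 119 of 171 other tested genes were higher with a median of 0.38. It had 418, 401 and 366 counts with MAX restored and 574, 540 and 501 in the controls, and went against its neighbours with a log2 fold change of -0.57 (SE 0.06, adjusted p = 1.48e-07). These stretches were known from earlier results on the same libraries. Within 5 Mb of each member the median of the other tested genes lay within 0.2 of 0 for 72 of the 76, and 70 members lay below that median.

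Of 20 tested large subunit proteins found only in mitochondria, 13 were lower and 1 was higher, with a median of -0.31, and 9 were lower with the length trend removed. Mrpl38, part of the central protuberance where the large subunit faces the small one, changed most in the family. It had 779, 735 and 672 counts with MAX restored and 1408, 1480 and 1424 in the controls. On the CPM scale the MAX restored libraries lay at 65.5, 65.6 and 65.7 and the controls at 139, 142 and 141, so that neither group spread by more than a few units. It fell 2.14-fold (log2 -1.10, SE 0.05, edgeR adjusted p = 6.72e-14). In mm9 it occupies chromosome 11, minus strand, bases 115993131 to 116000182, with 9 exons, and the 151 tested genes within 5 Mb had a median of 0.03. Mrpl37 had 813, 744 and 704 counts with MAX restored and 946, 959 and 908 in the controls, and fell 1.35-fold. Mrps18a, built into the large subunit in spite of its name, had 323, 337 and 308 counts with MAX restored and 451, 477 and 450 in the controls, and fell 1.55-fold.

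Mrpl49 was the other member called higher. It had 753, 743 and 656 counts with MAX restored and 572, 637 and 558 in the controls, which gave 64.5 ± 1.55 CPM and 57.6 ± 3.09 CPM (SD, n = 3 each). Its log2 fold change of 0.16 (SE 0.05, adjusted p = 0.0118) was small, with control 2 the nearest to the MAX restored libraries, and it was 0.13 with an adjusted p of 0.0667 without control 3. On chromosome 19 it overlaps exons of Syvn1 over 5.17% of its exon length.

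**Figure D3:**
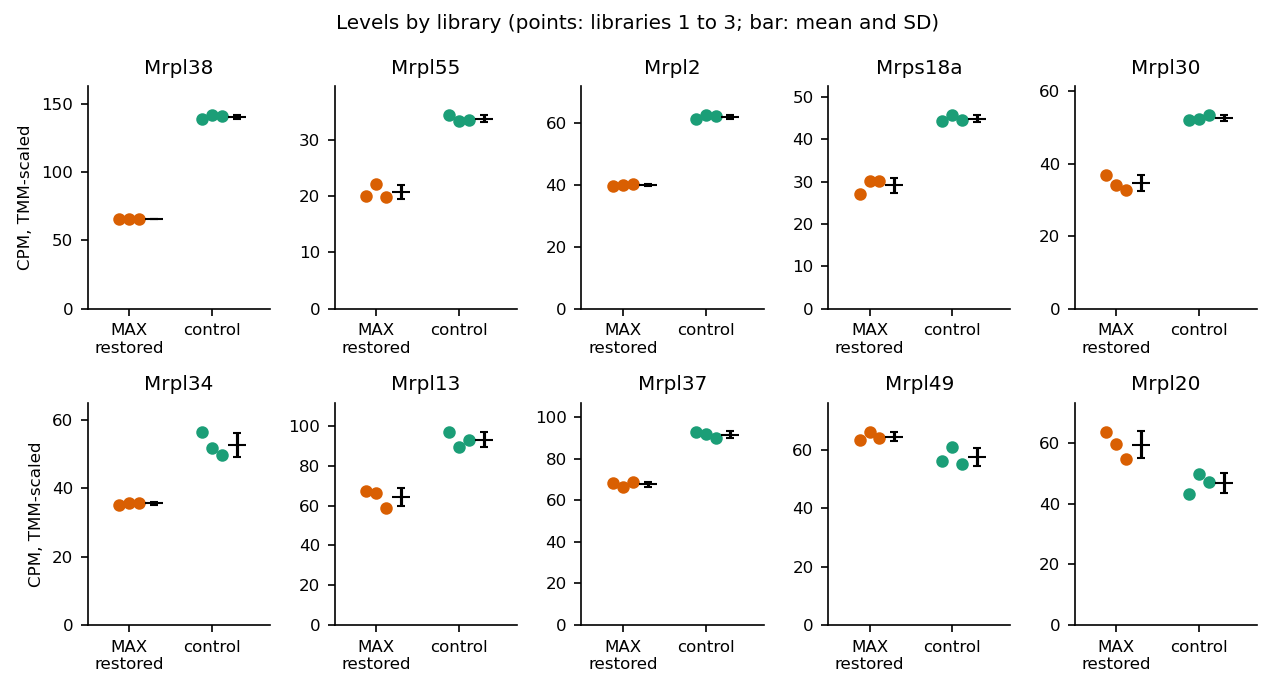
Level in each library (points, CPM scaled by TMM, axis from 0), with mean and SD, of the 8 members called lower with the smallest p and the 2 called higher. MAX restored libraries are on the left of each panel and controls on the right, and the groups are separate in all 10 panels.

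Genes were also grouped by functional site of the large subunit, and differences between sites were not tested. Of 5 stalk genes 4 were lower (80.0%, against 32.3% of all tested genes). With the length trend removed 3 were lower, where 30.7% of all tested genes were. Mrpl53, at log2 -0.15 in that fit, no longer passed. The stalk recruits translation factors, and its protein Mrpl12, also reported to bind the mitochondrial RNA polymerase, had 790, 720 and 603 counts with MAX restored and 849, 889 and 760 in the controls (log2 -0.36, SE 0.06). Mrpl54 fell 1.58-fold, with 244, 214 and 222 counts with MAX restored and 341, 318 and 333 in the controls. Mrpl10, which ties Mrpl12 to the ribosome, was the exception. Its level was 109, 110 and 110 CPM with MAX restored and 111, 109 and 107 CPM in the controls, with a log2 fold change of 0.01 (SE 0.05). It had the highest CPM of any member with MAX restored and the second highest in the controls, so low counts do not limit that value.

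Of 7 central protuberance genes 4 were lower (57.1%, against 32.3% of all tested genes). These spread from -1.10 for Mrpl38 to -0.24 for Mrpl18, and the other 3 (Mrpl27, Mrpl40 and Mrpl46) did not pass. With the length trend removed, where 30.7% of all tested genes were lower, Mrpl38 and Mrpl55 were still called. Mrpl18 (adjusted p = 0.298) and Mrpl48 (0.355) were not, and the other 3 turned positive, at 0.02 to 0.07. Mrpl48 also did not pass without control 1 (0.138), without control 3 (0.051), without MAX restored library 1 (0.104) and without MAX restored library 2 (0.148). Mrpl55 fell 1.63-fold, with 238, 248 and 204 counts with MAX restored against 350, 348 and 339 in the controls. Around the exit of the peptide tunnel, 4 of 7 tested genes were lower (57.1%). Among them were Mrpl17 (log2 -0.45, SE 0.06) and Mrpl45 (-0.34, SE 0.07), which holds the ribosome to the inner membrane. The other 2 of the 4, Mrpl22 (adjusted p = 0.305) and Mrpl24 (0.098), did not pass with the length trend removed. Mrpl22 also did not pass without control 3 (0.128), without MAX restored library 2 (0.123) and without MAX restored library 3 (0.058). Mrpl39 (0.03, SE 0.08) and Mrpl44 (0.06, SE 0.07) overlapped between the groups and did not pass. Mrpl39 had 398, 400 and 350 counts with MAX restored and 302, 383 and 348 in the controls, and was -0.05 without control 1. Mrpl44 had 345, 364 and 318 counts with MAX restored and 298, 317 and 291 in the controls. Mrpl23, also at the exit, was not tested, with 5, 5 and 4 counts with MAX restored and 12, 9 and 9 in the controls. RefSeq lists a pseudogene under its name, as it does for Mrpl27, Mrpl48 and Mrps36, and reads that match both copies would be missing from the counts.

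In the small subunit, 12 of 16 tested proteins with a bacterial counterpart were lower (median -0.36) and none was higher. With the length trend removed 8 were lower and Mrps21 was higher. Mrps10, a protein of the head, had 167, 138 and 133 counts with MAX restored and 211, 220 and 216 in the controls. Mrps28 had 207, 177 and 192 with MAX restored and 309, 266 and 276 in the controls. Both had a log2 fold change of -0.68 (SE 0.09), with the groups apart in every library. Mrps7, also of the head, fell 1.37-fold to 72.5 ± 2.80 CPM with MAX restored, against 99.0 ± 7.45 CPM in the controls (SD, n = 3 each), and Mrps15 fell 1.40-fold. Mrps12, at the site where codons are read, was at log2 -0.38 (SE 0.07). Mrps11, Mrps14, Mrps21 and Mrps24 lay between -0.12 and -0.02 and did not pass.

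Of the 10 small subunit proteins specific to mitochondria, 9 were lower (90.0%, against 32.3% of all tested genes), with a median of -0.39. After the length trend was removed 8 were lower, where 30.7% of all tested genes were. Mrps34 fell 1.37-fold to 54.4 ± 2.83 CPM with MAX restored, against 74.7 ± 4.43 CPM in the controls (SD, n = 3 each), and Mrps26 fell 1.36-fold. Mrps33 was the exception at -0.15 (SE 0.19), with 48, 34 and 50 counts with MAX restored and 49, 46 and 40 in the controls, too few to place its change closely. Mrps36, which is no ribosomal protein in known structures, was at 0.29 (SE 0.22, adjusted p = 0.26) with 27, 34 and 31 counts with MAX restored and 26, 21 and 22 in the controls. It was the only Mrps gene with a positive value, and it did not pass.

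The 3 relatives of bacterial ribosomal protein S18 could be compared directly, since each takes up a different place. Mrps18a (large subunit) was at log2 -0.63 (SE 0.06) and Mrps18b (small subunit, specific to mitochondria) at -0.64 (SE 0.10). Mrps18c, the counterpart of the bacterial protein, was at -0.25 (SE 0.08). Mrps18b had 178, 160 and 142 counts with MAX restored and 201, 236 and 251 in the controls. Mrps18c had 305, 263 and 248 counts with MAX restored and 279, 292 and 322 in the controls. All 3 passed the threshold, but Mrps18c was -0.18 with an adjusted p of 0.0716 without control 3, -0.22 with an adjusted p of 0.0562 without MAX restored library 2, and -0.02 with an adjusted p of 0.863 once the length trend was removed. The difference between the relatives was not tested.

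Levels of the members differed far more than their changes did. Per kilobase of annotated exon, tested members ranged from 3.79 CPM (Mrps33) to 89.6 CPM (Mrpl20) with MAX restored, median 25.2, and from 3.14 CPM (Mrps36) to 119 CPM (Mrpl13) in the controls, median 32.7. The exon length joins all annotated ends of a gene, so the value of a gene with a long alternative end, such as Mrps25 with 6065 bases, is understated. Mrpl20 stood at 89.6 ± 6.72 CPM per kilobase with MAX restored, first in the family, and at 70.4 ± 4.93 in the controls, ninth. Mrpl13 stood at 81.8 ± 5.83 with MAX restored and 119 ± 4.96 in the controls, second and first. These neighbours in the MAX restored order differed by little more than their spread. Mrpl38 was at 46.5 ± 0.0725 with MAX restored, place 17, and at 99.6 ± 1.18 in the controls, place 2 (SD, n = 3 each). Mrpl12 held place 3 in both groups, at 66.6 ± 4.05 with MAX restored and 85.8 ± 5.63 in the controls.

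Many members begin back to back with another gene, which the mm9 coordinates in the files show. For 27 of the 77 a gene on the other strand started within 1000 bases upstream. Mrpl46 and Mrps11 are such a pair within the family, with 42 bases between them, and neither passed (log2 -0.08, SE 0.09, and -0.02, SE 0.09). In the 24 pairs with a tested gene outside the family, 17 Mrp genes were lower, and the partner was also lower in 8, did not pass in 6 and was higher in 3. Lower together were Mrpl13 with Mtbp (-0.31), Mrpl18 with the chaperonin gene Tcp1 (-0.31), Mrpl30 with Mitd1 (-0.49) and Mrpl43 with Peo1, the mitochondrial DNA helicase (-0.61). The others of the 8 were Mrpl32 (adjusted p = 0.046) with Psma2, Mrpl51 with Ncapd2, Mrpl57 with Ska3 and Mrps27 with Ptcd2. With the length trend removed 6 of the 8 pairs were still lower together, without Mrpl18 (adjusted p = 0.298) and Mrpl32 (0.887). Mrpl32 also did not pass without control 2 (0.169), without MAX restored library 1 (0.095) and without MAX restored library 2 (0.224).

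In 3 pairs the Mrp gene was lower and its partner higher; differences within a pair were not tested. Mrps18b, at -0.64 (SE 0.10), starts 827 bases from Ppp1r10, which rose by log2 0.23 (SE 0.05). Mrps34, at -0.45 (SE 0.06), starts 33 bases from the endonuclease subunit gene Eme2, which rose by 0.27 (SE 0.10). Eme2 did not pass without control 3 (adjusted p = 0.0848) or without MAX restored library 1 (0.123). It also did not pass with DESeq2 (0.083) or with the trend with GC content removed (0.0938). Mrps12, at -0.38 (SE 0.07), starts 187 bases from Sars2, the mitochondrial seryl-tRNA synthetase gene, which rose by 0.33 (SE 0.09). Lrrc46, which starts 217 bases from Mrpl10, rose by 0.76 (SE 0.19), from few reads at 4.91 ± 0.306 CPM with MAX restored and 2.90 ± 0.634 CPM in the controls (SD, n = 3 each). In 3 pairs only the partner was lower (Eme1 beside Mrpl27, Pnpla7 beside Mrpl41 and Ndufb5 beside Mrpl47), and of these only Eme1 passed with each library left out in turn. The Mrp gene had the lower fold change in 18 of the 24 pairs. Over the partners, 11 of 24 were lower (45.8%) and 4 higher (16.7%), against 32.3% and 31.2% of all tested genes, with a median of -0.14.

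**Figure D4:**
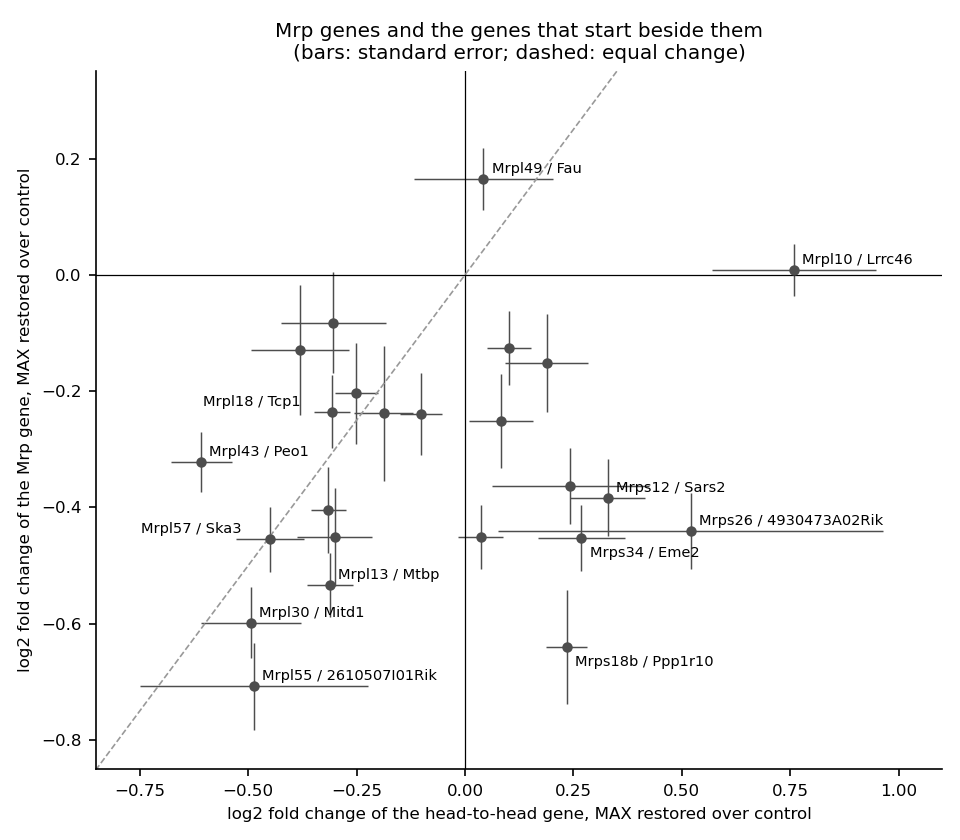
Log2 fold change, MAX restored over control, of 24 Mrp genes (vertical axis) and of the gene outside the family that starts back to back with each (horizontal axis), with standard errors. The dashed line marks equal change. Mrpl30 with Mitd1 and Mrpl57 with Ska3 lie near the line, while Mrps18b, Mrps34 and Mrps12 fall beside partners that rose.

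Mitoribosome proteins that carry other symbols did not all go the same way. Over all tested genes 32.3% were lower and 31.2% higher, so both directions were common in these libraries. A difference between this list, with 3 of 6 lower and 2 higher, and all tested genes was not tested. Of 6 tested, Dap3 (log2 -0.46, SE 0.05), Chchd1 (-0.65, SE 0.07) and the peptide release factor relative Ict1 (-0.24, SE 0.05) were lower, though Ict1 was at -0.05 (adjusted p = 0.441) with the length trend removed. Gadd45gip1 (0.38, SE 0.10) and Aurkaip1 (0.16, SE 0.05) were higher, and Ptcd3 (0.05, SE 0.07) did not pass. Aurkaip1 did not pass without control 2 (adjusted p = 0.0752), without MAX restored library 1 (0.0641) or with the trend with GC content removed (0.109). It averaged 89.1 ± 3.43 CPM with MAX restored and 79.7 ± 4.58 CPM in the controls (SD, n = 3 each).

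Factors that assemble the ribosome or modify its RNA were lower in 14 of 25 tested genes and higher in 1, Ybey (log2 0.50), an endoribonuclease for RNA processing. Their median was -0.25. The lower share was 56.0%, against 32.3% of all tested genes, and the higher share was 4.00%, against 31.2%. With the length trend removed 12 were lower, with a median of -0.18, where 30.7% of all tested genes were lower. DESeq2 also called 12 lower. The smallest p-values belonged to C1qbp, a matrix protein needed for mitochondrial translation, Wbscr16 and the GTPase gene Noa1. C1qbp fell 1.86-fold to 45.4 ± 1.03 CPM with MAX restored, against 84.3 ± 4.36 CPM in the controls (SD, n = 3 each). Wbscr16 fell 1.79-fold and Noa1 1.46-fold. Mitochondrial translation factors were lower in 7 of 15, led by Lrpprc (-0.49, SE 0.05), which stabilises mitochondrial messenger RNAs, the elongation factor gene Gfm1 (-0.31) and Tsfm (-0.32). The initiation factor gene Mtif2 rose by 0.22 (SE 0.07). The list's median was -0.13, and its lower share was 46.7%, against 32.3% of all tested genes. DESeq2 called 4 of the 15 lower, and 28.2% of all tested genes. Without MAX restored library 2 or without MAX restored library 3, 5 were lower, with 28.8% and 28.7% of all tested genes lower. With the length trend removed 6 were lower and 2 higher, with a median of -0.08.

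Of 6 tested genes of mitochondrial transcription, the RNA polymerase gene Polrmt (log2 -0.38, SE 0.07) and the packaging factor gene Tfam (-0.20, SE 0.06) were lower, and the other 4 did not pass. Nuclear regulators of mitochondrial genes were lower in 3 of 8 tested. These shares, 33.3% and 37.5%, lie near the 32.3% of all tested genes, and the second list's median was -0.03. Pprc1, a coactivator related to PGC-1, fell 1.82-fold to 74.2 ± 0.793 CPM with MAX restored, against 135 ± 10.9 CPM in the controls (SD, n = 3 each). Gabpa, the DNA-binding part of GABP, was at -0.26 (SE 0.06) and Yy1 at -0.15 (SE 0.05). Yy1 did not pass without MAX restored library 1 (adjusted p = 0.0593) or without MAX restored library 3 (0.055). It also did not pass with the trend with GC content removed (0.05005), or with the length trend removed and replicate number added as a block (0.0515). Nrf1 (-0.04, SE 0.05) and Esrra (-0.02, SE 0.07) did not pass, and Ppargc1a had too few counts to be tested.

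Exons of another gene overlap those of 10 members, most of all in Mrps25, where 58.3% of the exon bases lie over Nr2c2. Mrps25 had 456, 420 and 390 counts with MAX restored and 537, 486 and 462 in the controls, with a log2 fold change of -0.35 (SE 0.06). Counting was without strand and reads over both genes would be left out, so such members are measured on part of their length. Over the 67 members with no such overlap, 48 of 66 tested were lower and 1 was higher, with a median of -0.35. Without the 4 members whose names have a listed pseudogene, 55 of 73 were lower and 2 higher, again with a median of -0.35.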

How the data were processed

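The authors deposited raw counts of reads per gene symbol, 1 file per library, with the exon length of each gene. Per the submitters' processing notes the tools were bcl2fastq 1.8.4, STAR 2.5.2a and featureCounts (Subread 1.6.0), with the build mm9. Per the file headers reads were counted without strand over exons, with no option to count reads on several places or genes. Per the labels, libraries came from 500 ng of total RNA.

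The members and lists were chosen with earlier results of these data known. Genes were kept by filterByExpr (minimum count 10; 12664 of 24391), scaled by TMM and tested with edgeR 4.0.16's quasi-likelihood test in R 4.3.3, with group as the sole term. Tests were two-sided, and p-values were adjusted over all tested genes by the Benjamini-Hochberg method. The standard error is the absolute log2 fold change over the square root of F. Counts are printed per library for members taken by rule. These are the 8 falls with the smallest p, every rise and the 5 extreme changes each way. The rule also takes the 3 extreme levels per kilobase each way, the Mrps18 genes and members of the stretches. Outside the rule, counts are printed for Mrpl54, an example of its site, and for Mrpl23, which was not tested. Other members are named as examples of their role or as exceptions seen in the data. Promoters came from GRCm38.p6 and were matched by symbol, and no coordinates were converted. Windows on chr18 were left out of the search. As alternatives, scaling, count filter and threshold were varied, DESeq2 1.42.0 and voom from limma 3.58.1 were run, replicate number was added as a block, trends with length and GC content were removed, and each library was left out in turn. The biological coefficient of variation was 4.28%. Values of single neuroendocrine markers are not reported here.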

Additional observations from a re-analysis of the deposited data

How the results depend on the processing

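Over the alternatives 40 to 57 members were called lower, against 56, and the median log2 fold change of the family stayed negative in each fit. Over the alternative fits at an adjusted p under 0.05, 23.3% to 32.9% of all tested genes were lower. The median was -0.32 with upper quartile scaling, -0.33 with a minimum count of 30, -0.33 with the trend with GC content removed (chosen after seeing the data) and -0.19 with the length trend removed, alone or with the replicate block; the cause of the last was not tested further. Leaving out each library in turn gave medians between -0.35 and -0.31, 48 to 55 members lower and 1 to 2 higher, with Mrpl49 the gene lost without control 3. In those fits 28.5% to 32.9% of all tested genes were lower. DESeq2 called 49 members lower, and 28.2% of all tested genes. With no filter on low counts Mrpl23 joined the lower members, and 23.3% of all tested genes were lower. At an adjusted p under 0.01, 47 members were lower and 1 higher, and the share of all tested genes at that threshold is not given here. With a change of at least log2 0.32, 40 members were lower and 1 higher, with 2358 genes lower (18.6%) and 2575 higher (20.3%) over all genes. Leaving out a library changed the sign of 7 members, none of them called (Mrpl3, Mrpl4, Mrpl10, Mrpl39, Mrps11, Mrps21 and Mrps33): Mrpl39 lay between -0.051 and 0.099 and Mrps33 between -0.30 and 0.016. With the length trend removed 12 members changed sign, of which Mrpl28 and Mrpl42 had been called lower, and upper quartile scaling or removing the GC trend changed 2 each, none called. Without MAX restored library 2, 48 members were lower. The correlations of same-numbered deviations were 0.00351, 0.0355 and -0.0241, and those of differently numbered ones ran from -0.0695 to 0.0635. Same-numbered libraries were thus not more alike than others, which cannot settle whether they were handled as pairs. The replicate block left 56 members lower and 2 higher.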
